A study of Mus musculus with 233 samples.

Results

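Mouse striatum was examined for 35 genes of the interferon response, antigen presentation and lymphocytes, chosen by symbol out of 41129 gene entries. They comprised 10 interferon effectors, 3 interferon signalling factors, 1 interferon-induced chemokine, 7 genes of MHC class I presentation, 5 of MHC class II presentation, 5 T cell genes and 4 genes of B and plasma cells. All 35 symbols matched 1 Ensembl entry each. The question was how these genes differed between viral vectors and the proteins they encode, in each genotype and treatment schedule, and how they related to vector transcripts.

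Bulk RNA sequencing covered 233 libraries of 120 mice, with each hemisphere of the striatum sequenced on its own. The wild-type (WT) mice and their heterozygous zQ175DN knock-in littermates (zQ175), a Huntington's disease model carrying human HTT exon 1 with an expanded CAG tract, all received adeno-associated virus in both hemispheres. Estop carried a stuffer that encodes no protein, nZFP expressed ZFP30645, an HA-tagged zinc finger repressor that binds the expanded CAG tract, and DBD expressed the same repressor without its DNA-binding domain. Both proteins were driven by the human synapsin promoter, which is active in neurons, and no uninjected mice were among the samples used here. Each schedule name joins the month of age at injection to that at collection. After injection at 2 months, treatment lasted 4 months in 2M_6M and 6 months in 2M_8M. After injection at 6 months it lasted 2 months in 6M_8M, 4 months in 6M_10M and 6 months in 6M_12M. Each of the 30 groups of genotype, virus and schedule held 6 to 8 libraries of males and females. Of the mice, 113 gave both hemispheres, each with a different virus, and 7 gave 1.

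Type I and type II interferons act through receptors and JAK kinases on STAT and IRF factors, which switch on antiviral effectors and the genes of antigen presentation. MHC class I molecules show peptides from inside a cell to CD8 T cells, and MHC class II molecules, made in the brain mainly by microglia, border macrophages and infiltrating cells, show peptides to CD4 T cells. Lymphocytes are sparse in healthy brain tissue, and immune reactions to adeno-associated virus can be directed at the capsid, the vector DNA or the encoded protein. In bulk tissue, fewer cells of a type and less RNA per cell cannot be told apart.

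Promoters of the members were searched for short motifs, and the stretches shown were picked from those with a match. RefSeq promoters (GRCm38.p6, 250 bases before to 50 after the start) were matched for 24 of the 35 members. The core of the interferon-stimulated response element, a GAAA separated by any 2 bases from another GAAA, was searched on both strands. It was present in 8 of the 24 (33.3%) and in 5 of 7 matched interferon effectors (71.4%), against 3.99% of all 27025 promoters of this length. The 8 were B2m, Bst2, Cxcl10, Ifit1, Ifit3, Isg15, Oas1a and Stat2. The STAT site TTCNNNGAA was present in Bst2, Gzmb, Ifit2 and Oas1a (16.7%, against 9.55%). The Y box CTGATTGG of MHC promoters was present in Cxcl10, H2-Aa, H2-D1, H2-Eb1, H2-K1 and Tap1 (25.0%, against 4.70%). The stretches below run 5′ to 3′ on the strand of the gene, with the response element in capitals in the first 6 and the Y box in capitals in H2-Aa and H2-Eb1. In Ifit1 the element lies on the reverse strand, and in Isg15, Ifit1, Oas1a and Bst2 several matches are joined or repeated. A match describes letters and is not a measured site.
Isg15, chr4:156200836-156200935, minus strand: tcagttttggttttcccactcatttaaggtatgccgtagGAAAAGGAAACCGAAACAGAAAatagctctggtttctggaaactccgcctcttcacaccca
Ifit1, chr19:34640749-34640848, plus strand: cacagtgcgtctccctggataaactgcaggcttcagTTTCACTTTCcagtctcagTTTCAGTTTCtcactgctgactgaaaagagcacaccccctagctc
Oas1a, chr5:120907526-120907625, minus strand: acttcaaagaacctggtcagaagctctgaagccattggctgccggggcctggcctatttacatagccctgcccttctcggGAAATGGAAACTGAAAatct
Bst2, chr8:71537545-71537644, minus strand: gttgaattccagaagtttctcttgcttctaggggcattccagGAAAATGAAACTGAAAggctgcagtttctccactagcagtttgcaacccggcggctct
Cxcl10, chr5:92349040-92349139, minus strand: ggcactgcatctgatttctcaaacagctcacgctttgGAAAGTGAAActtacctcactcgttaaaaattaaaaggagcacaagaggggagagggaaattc
B2m, chr2:122147503-122147602, plus strand: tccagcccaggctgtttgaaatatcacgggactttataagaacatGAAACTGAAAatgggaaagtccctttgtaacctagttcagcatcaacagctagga
H2-Aa, chr17:34287824-34287923, minus strand: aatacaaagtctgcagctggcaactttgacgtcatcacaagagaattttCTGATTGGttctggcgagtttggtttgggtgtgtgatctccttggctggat
H2-Eb1, chr17:34305759-34305858, plus strand: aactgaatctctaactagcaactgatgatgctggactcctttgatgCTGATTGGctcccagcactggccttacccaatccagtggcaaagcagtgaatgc

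Vector transcripts were checked before the comparisons. The repressor entry had 98.7 CPM (counts scaled to equal library totals) at the lowest, 595 CPM at the median and 1087 CPM at the highest in 77 nZFP libraries, and at most 27.8 CPM in the matching libraries of the other viruses. Entries of 4 libraries contradicted their label: WT DBD 6M_8M R7 and R8 held 321 and 480 CPM of repressor, the library labelled zQ175 nZFP 6M_8M R5 held 8.55 CPM, and the library labelled WT DBD 2M_6M R6 held the Estop entry at 3.73 CPM with 59.2 CPM of WPRE, the RNA element of both protein vectors. For several comparisons, results are also given without these 4. In addition, 58 libraries were low in long genes, with an index of long against short genes below -0.2 on a log2 scale (range -1.52 to 0.49). They comprised 31 of 47 libraries in 2M_8M and 18 of 46 in 6M_12M, but 3 of 46 in 2M_6M, 5 of 46 in 6M_10M and 1 of 48 in 6M_8M. All WT nZFP 2M_8M libraries were among them. Stat2 had 5.09, 6.84 and 12.0 CPM (lowest, median, highest) in the 18 such libraries of 6M_12M, against 8.94, 12.9 and 17.6 CPM in the other 28. Ifi27 went the other way, with a median of 25.3 CPM against 19.4 CPM. The cause of this split was not tested.

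Effector transcripts and the class I chains were present in every library, while most T cell transcripts were at the detection limit. On a per-length scale (TPM, median over 233 libraries), the class I light chain B2m had 190 TPM, the class I heavy chains H2-D1 and H2-K1 75.6 and 63.1 TPM, and the peptide-loading genes Tapbp, Tap2 and Tap1 20.5, 6.47 and 2.60 TPM. Among interferon effectors, Ifi27 had 49.0 TPM, Ifit3 10.6 TPM, Bst2 9.01 TPM, Ifit2 5.44 TPM, Isg15 3.80 TPM, Rtp4 3.21 TPM, Oasl2 2.64 TPM, Ifit1 1.79 TPM, Usp18 1.48 TPM and Oas1a 1.06 TPM. Of the signalling factors, Irf9 was at 6.72 TPM, Stat2 at 6.38 TPM and Irf7 at 2.63 TPM. Class II genes were lower: the invariant chain Cd74 had 4.60 TPM, the chains H2-Ab1, H2-Eb1 and H2-Aa 2.00, 1.85 and 1.34 TPM, and the class II transactivator Ciita 0.0221 TPM. Nlrc5, the class I transactivator, had 0.169 TPM and the chemokine Cxcl10 0.270 TPM. Reads of near-identical genes (H2-K1 and H2-D1, the Ifit and Oas families, immunoglobulin segments) can be divided between copies, so their single values are uncertain.

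Cd4 was abundant where the other T cell genes were near 0. It had a median of 52.9 TPM, whereas Cd3e, a chain of the T cell receptor complex, was at 0 in 141 of 233 libraries and had at most 15 counts. Gzmb, a protease of cytotoxic cells, was at 0 in 168 libraries and had at most 8 counts, Cd3g was at 0 in 99 libraries and Cd8a in 65. Cd4 is counted among the T cell genes by symbol alone, and its level did not follow theirs. Its median was 73.8 CPM in 6M_8M and 75.1 CPM in the other schedules. Cd3g had medians of 0.0816 and 0.0218 CPM and Cd8a of 0.127 and 0.0282 CPM. Which cells gave the Cd4 transcripts was not tested. Cd3e and Gzmb passed no filter in the fit of all groups, so 33 members were tested there. B and plasma cell transcripts ranged widely: the antibody light chain Igkc had a median of 15.5 TPM, the heavy chain Ighm 9.79 TPM, the joining chain Jchain 5.79 TPM and the B cell receptor component Cd79a 0.338 TPM. Igkc spanned 0.0286 to 119 CPM over all libraries.

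**Figure D1:**
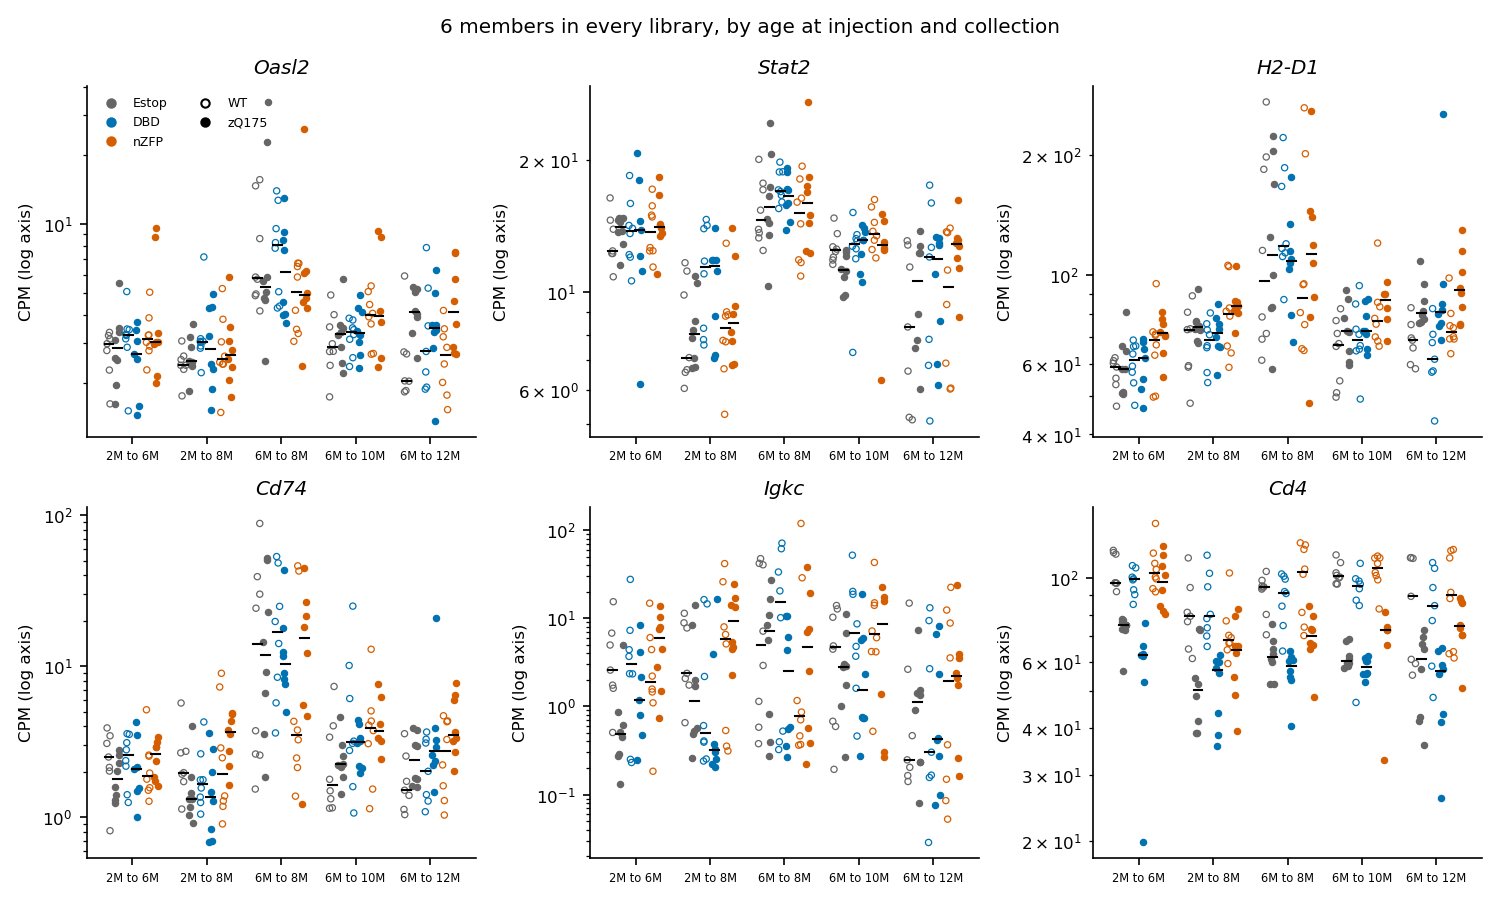
Level in CPM (log axis) of Oasl2, Stat2, H2-D1, Cd74, Igkc and Cd4 in each of the 233 libraries, by schedule, virus (colour) and genotype (open WT, filled zQ175); black lines are group medians. The 6M_8M libraries reach the highest levels of Oasl2 and Cd74 under every virus, and Stat2 is low in many 2M_8M and 6M_12M libraries. Group medians of Cd4 are lower in zQ175 than in WT, least so under nZFP after injection at 2 months.

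The expressed protein was first compared with the empty vector in WT mice. Averaged over the 5 schedules, DBD minus Estop changed 0 of 33 members (edgeR, adjusted p under 0.05; 0.995% of 16792 genes higher, 2.26% lower). At an unadjusted p under 0.05, 2 were higher and 0 lower, and DESeq2 called 1. The median log2 difference of the members was 0.12, with 27 of 33 above 0, against 0.01 over all genes. Cxcl10, which attracts activated T cells, had 0, 0.126 and 3.49 CPM (lowest, median, highest) in 37 Estop libraries and 0, 0.248 and 3.57 CPM in 39 DBD libraries. These groups overlapped over nearly their whole range, and the difference of 1.14 ± 0.38 (log2, SE) had an adjusted p of 0.074 by edgeR. Stat2 differed by 0.15 (95% interval 0.01 to 0.28), Oasl2 by 0.20 (-0.07 to 0.47) and Cd74 by 0.18 (-0.30 to 0.67).

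The repressor in WT mice also changed 0 of 33 members against Estop (edgeR; 2.20% of all genes higher, 3.81% lower; 0 at an unadjusted p under 0.05; DESeq2 0). The median of the members was 0.08. Stat2 differed by 0.04 (95% interval -0.09 to 0.18), H2-D1 by 0.14 (-0.03 to 0.31), Oasl2 by 0.02 (-0.24 to 0.29) and Igkc by 0.68 (-0.21 to 1.57). The intervals of effector and class I genes were narrow and those of class II and antibody genes wide. For nZFP minus DBD in WT, 0 of 33 changed (edgeR; 1.82% of all genes higher, 1.51% lower; 1 at an unadjusted p under 0.05; DESeq2 0), with a median of -0.01.

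In zQ175 mice, DBD again changed 0 of 33 members against Estop (edgeR; 0.637% of all genes higher, 2.06% lower; unadjusted p under 0.05, 0 higher and 3 lower; DESeq2 0), and their median was -0.02. With both genotypes together, Cd4 fell by 0.14 ± 0.04 under DBD (adjusted p = 0.031, edgeR) and was the single member called (5.14% of all genes were lower and 2.39% higher). Among 10 marker genes of medium spiny neurons, the main striatal cell type, 4 fell under DBD in zQ175 (median -0.12). The part of these neurons in the Cd4 difference was not tested.

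In zQ175 mice, Cd4 and the antibody genes Igkc and Jchain were higher under nZFP than under Estop. These were 3 of 33 members, with 0 lower (edgeR; 6.88% of all genes higher, so the share of members was near that of all genes), and the median of the members was 0.19, with 32 of 33 above 0. Igkc had 0.0809, 1.18 and 26.9 CPM (lowest, median, highest) in 40 Estop libraries and 0.163, 4.42 and 38.1 CPM in 38 nZFP libraries. Although the groups overlapped, Igkc was higher under nZFP by 1.45 ± 0.47 (log2, SE; adjusted p = 0.020). Jchain, which joins secreted antibody units, had 0.243, 1.80 and 56.7 CPM under Estop and 0.246, 6.37 and 44.2 CPM under nZFP, a difference of 1.35 ± 0.47 (adjusted p = 0.035). Cd4 had 36.0, 61.4 and 78.0 CPM under Estop and 32.8, 73.5 and 122 CPM under nZFP, a difference of 0.29 ± 0.06 (adjusted p = 0.00014). Under nZFP some libraries lay above the whole Estop range for Cd4 and Igkc but not for Jchain, and the medians moved by more than the extremes for Igkc and Jchain. With limma-voom in place of edgeR, and no block, Cd4 alone passed.

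Against DBD, 6 of 33 members were higher in zQ175 under nZFP and 0 lower (edgeR; 8.61% of all genes higher), with a median of 0.24 and 31 of 33 above 0. All 4 B and plasma cell genes were among them. Ighm had 1.68, 5.35 and 11.0 CPM in 39 DBD libraries and 4.61, 6.29 and 16.6 CPM in the nZFP libraries, a difference of 0.33 ± 0.09 (adjusted p = 0.0032). Cd79a had 0, 0.175 and 0.708 CPM against 0, 0.368 and 1.24 CPM, a difference of 1.00 ± 0.29 (adjusted p = 0.0078). These ranges overlapped for both genes, with the highest libraries under nZFP. Igkc and Jchain differed by 1.32 ± 0.46 and 1.31 ± 0.47 (adjusted p = 0.033 and 0.037). Tapbp, which holds class I molecules at the peptide transporter, had medians of 24.0 CPM under DBD and 25.5 CPM under nZFP and differed by 0.12 ± 0.04 (adjusted p = 0.016). Cd4 differed by 0.46 ± 0.06 (adjusted p = 5.1e-10). Oasl2, an antiviral effector, differed by 0.36 ± 0.13 and was at an adjusted p of 0.051.

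**Figure D2:**
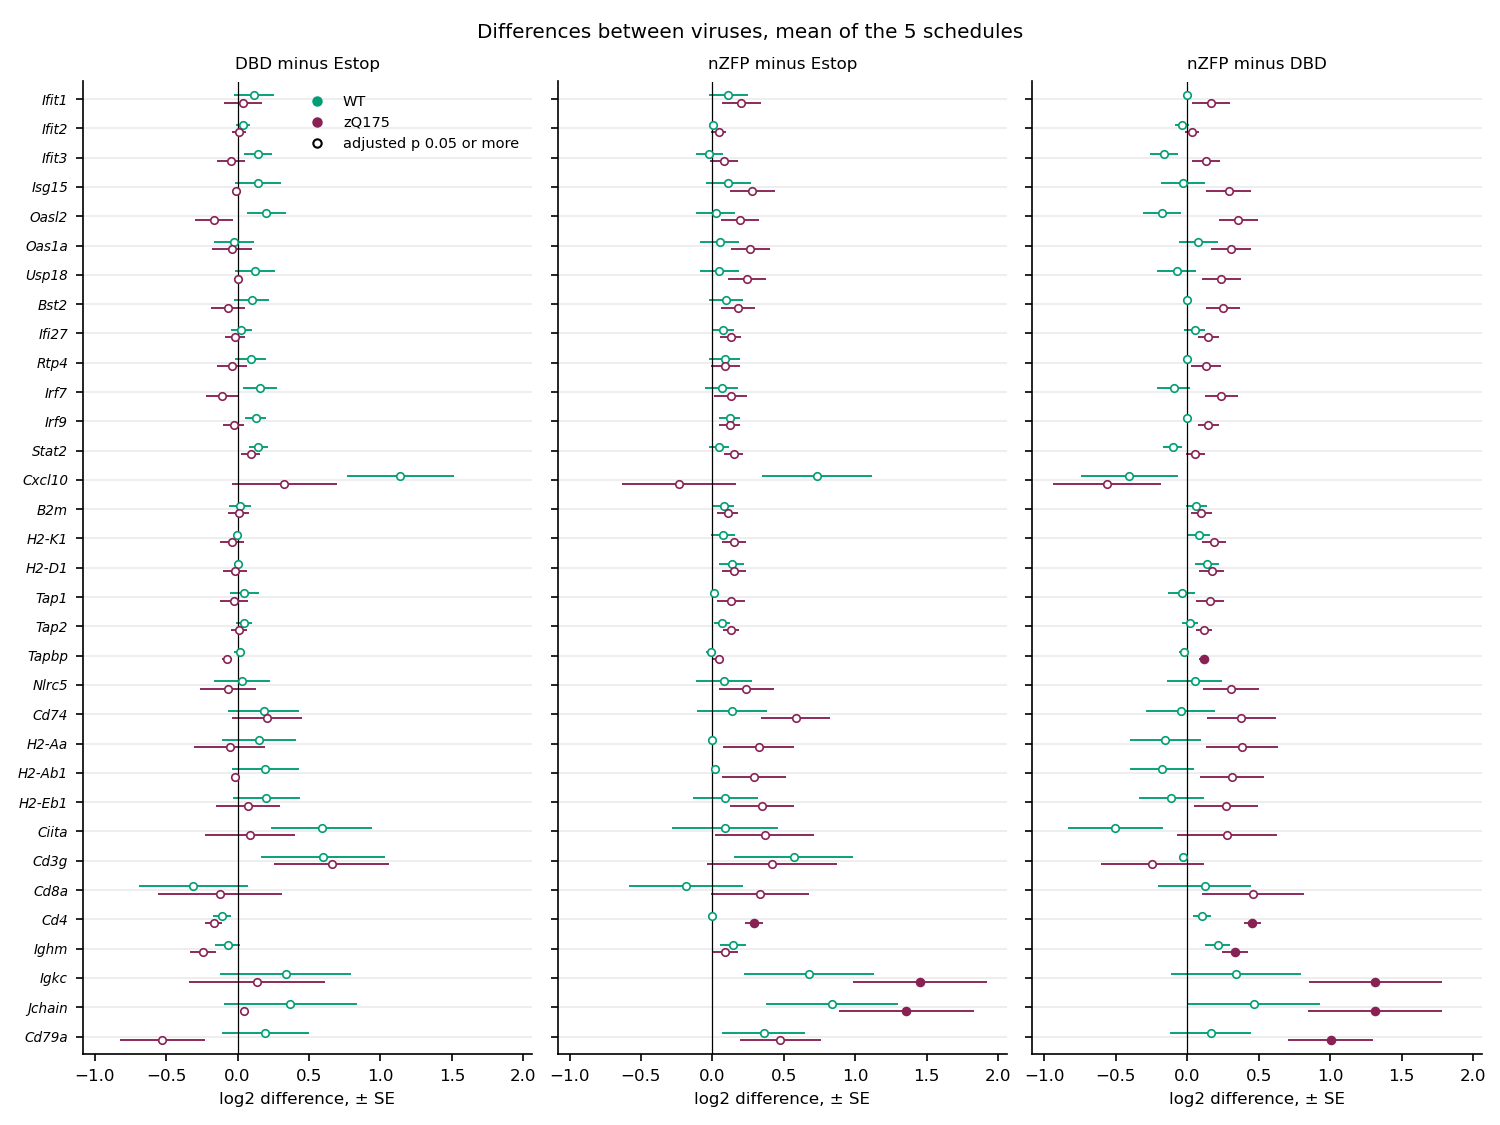
Log2 difference ± SE of each tested member between viruses, averaged over 5 schedules, in WT and zQ175; filled points have an edgeR adjusted p under 0.05, open points 0.05 or more, and points at 0 without a bar have no reliable SE. Filled points appear in zQ175 alone: Cd4, Igkc and Jchain for nZFP minus Estop, and these with Tapbp, Ighm and Cd79a for nZFP minus DBD.

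Whether zQ175 and WT responded differently was tested directly. The difference of nZFP minus Estop between genotypes passed for Cd4 alone (0.29 ± 0.09, adjusted p = 0.031, edgeR; 2.79% of all genes higher). It was 0.77 ± 0.65 for Igkc (adjusted p = 0.67) and 0.52 ± 0.66 for Jchain, so the antibody genes were not shown to respond differently by genotype. With both genotypes together, Igkc, Jchain and Cd4 were higher under nZFP than under Estop (1.06, 1.10 and 0.14), 3 of 33 members where 7.65% of all genes were higher. For DBD minus Estop, 0 members differed between genotypes (edgeR; 0.0179% of all genes lower; 0 at an unadjusted p under 0.05; DESeq2 0).

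The hemispheres of a mouse share the animal, so the contrasts were also fitted with the mouse as a block (limma-voom). In zQ175, nZFP minus Estop kept Cd4 (0.26, adjusted p = 0.0026), Igkc (adjusted p = 0.0030) and Jchain (1.43, 0.0046), with 7.25% of all genes higher. For nZFP minus DBD, only Cd4 (0.45) and Ighm (0.37) of the 6 were called within mice, with no share of all genes given here. The interaction of Cd4 with genotype was not called there, nor without the library of each group outlying in interferon effectors or in lymphocyte genes. Without the 17 6M_8M libraries that were high in choroid plexus or cortical markers, 12 members were higher in zQ175 for nZFP minus Estop (5.77% of all genes) and 12 for nZFP minus DBD (7.02%). The added members of the first contrast were Ifit1 (0.48), Isg15 (0.60), Oasl2 (0.49), Oas1a (0.45), Usp18 (0.43), Irf9 (0.25), Stat2 (0.22), Tap1 (0.28) and Tap2 (0.17). Without the 4 contradicting libraries the counts were 3 and 7, for which no share of all genes is given here.

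Other genes of the same pathways were compared in zQ175 under nZFP against Estop. Of 23 tested lymphocyte genes outside the members, 4 were higher, among them the antibody chains Iglc2 (1.45 ± 0.50, adjusted p = 0.033), Ighg2b (1.46 ± 0.51, 0.033) and Ighg2c (1.46 ± 0.52, 0.042). Of 36 other interferon-stimulated genes, 1 was higher, Lgals3bp (0.23 ± 0.08, 0.038), and 32 lay above 0 (median 0.11). Among 25 other presentation genes, H2-M3 (0.22 ± 0.07) and H2-DMa (0.17 ± 0.05) rose and 1 fell. The interferon gamma receptor chain Ifngr2 fell by 0.24 ± 0.04 (adjusted p = 8.5e-09), 1 of 20 receptors and sensors, and 0 of 8 chemokines changed. Beside these, 2 of 12 microglial markers were higher (Cx3cr1 by 0.11 ± 0.03), 9 of 10 medium spiny neuron markers were higher (median 0.25; Penk by 0.49 ± 0.05), and 2 of 6 cortical neuron markers and 1 of 8 choroid plexus markers were lower. The part of each cell type in the member differences was not tested. In WT, nZFP minus Estop gave 0 calls in every one of these lists.

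By schedule, all calls between viruses came from mice injected at 2 months. In 2M_6M, 5 of 30 tested members were higher for nZFP minus Estop (edgeR; 3.79% of all genes higher) and 7 for nZFP minus DBD (8.80%). Cd4 had 80.5, 97.7 and 122 CPM (lowest, median, highest) under nZFP, 56.7, 75.1 and 78.0 CPM under Estop and 19.8, 62.6 and 75.8 CPM under DBD. All nZFP libraries lay above all others, with differences of 0.48 ± 0.12 (adjusted p = 0.0094) and 0.84 ± 0.13 (7.9e-06). H2-K1 had 34.8, 46.0 and 51.1 CPM under nZFP, 27.1, 33.7 and 44.5 CPM under Estop and 26.3, 36.2 and 40.5 CPM under DBD, differing by 0.42 ± 0.12 (0.020) and 0.39 ± 0.12 (0.021). Irf7, the factor that amplifies interferon production, had 1.40, 2.61 and 7.26 CPM under nZFP, 1.18, 1.94 and 3.13 CPM under Estop and 1.57, 1.82 and 2.35 CPM under DBD. It differed by 0.75 ± 0.23 (0.039) and 0.82 ± 0.25 (0.015), and its nZFP range overlapped both controls and reached higher.

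Further calls in 2M_6M zQ175 came from 1 contrast each. B2m (0.34 ± 0.11, adjusted p = 0.045) and Jchain (3.16 ± 0.90, 0.021) passed against Estop. Jchain had 0.638, 11.9 and 26.1 CPM under nZFP and 0.367, 0.609 and 7.36 CPM under Estop. Against DBD the calls were Ifit3 (0.58 ± 0.20, 0.035), Oasl2 (0.76 ± 0.27, 0.035), Oas1a (0.91 ± 0.29, 0.020) and Cd79a (1.26 ± 0.43, 0.031). For Oasl2 the nZFP libraries reached 9.63 CPM, against 3.71 CPM in the highest DBD library, but their medians were 3.03 and 2.69 CPM. Within mice (edgeR with the mouse as a block), Jchain (3.18) remained against Estop and Cd4 (0.82) against DBD. Shares of all genes called in these within-mouse fits are not given here.

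In 2M_8M zQ175, the peptide transporter gene Tap2 had 8.65, 10.5 and 12.8 CPM under nZFP, 7.97, 9.24 and 9.81 CPM under Estop and 7.82, 9.19 and 10.1 CPM under DBD. It differed by 0.27 ± 0.07 (adjusted p = 0.011) and 0.25 ± 0.07 (0.021). Tap2 was 1 of 30 members called against Estop (3.02% of all genes higher) and, with Ighm (0.36 ± 0.11, 0.036), 1 of 2 against DBD (4.16%). Within mice (edgeR with the mouse as a block), Tap2 (0.32) and Cd74 (1.28, adjusted p = 0.0014) were called against Estop, and Cd74 (1.17), Cd4 (0.50), Igkc (3.02) and Jchain (3.15) against DBD. Shares of all genes called in these within-mouse fits are not given here, so the counts need not be particular to the members. In WT 2M_8M, B2m had 57.8, 76.5 and 90.8 CPM under DBD and 76.1, 99.6 and 133 CPM under nZFP, higher by 0.45 ± 0.11 (adjusted p = 0.020; 1 of 30, 0.938% of all genes higher). This call was lost in 3 of 11 alternatives: with the mouse as a block, with the long-gene index and without libraries outlying in lymphocyte genes. All 8 WT nZFP libraries of 2M_8M were low in long genes, against 4 of 8 WT DBD libraries.

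The other contrasts of virus within a schedule gave 0 member calls by edgeR and by DESeq2, with 0.0125% to 3.34% of all genes higher and 0.00625% to 1.16% lower. For DBD minus Estop, taking schedules by age at injection and then at collection, the shares of all genes higher were 0.0893%, 0.095%, 0.05%, 0.145% and 0.11% in WT and 3.34%, 0.0824%, 0.0187%, 0.0631% and 0.0773% in zQ175. Those lower were 0.0191%, 0.101%, 0.137%, 0.524% and 0.058% in WT and 1.16%, 0.101%, 0.0375%, 0.17% and 0.213% in zQ175. In 6M_10M, all 30 tested members lay above 0 for nZFP minus Estop in WT (median 0.36) and in zQ175 (median 0.46). The median over all genes was 0.01 in both genotypes. At an unadjusted p under 0.05 (edgeR) there were 10 members in each, for which no share of all genes is given. Members can move together within a library, so counts of members above 0 are not counts of independent observations. In 6M_8M the direction varied by contrast. Here 7 of 33 lay above 0 for nZFP minus Estop in WT (median -0.21) and 10 in zQ175 (-0.09). For DBD minus Estop 17 lay above 0 in WT (0.01) and 0 in zQ175 (-0.23), and for nZFP minus DBD 5 in WT (-0.24) and 22 in zQ175 (0.12). The WT DBD and zQ175 nZFP groups of 6M_8M include libraries whose vector entries contradict their labels, and these directions are not given without them. Between mice injected at 2 and at 6 months with equal treatment, nZFP minus Estop differed for 0 of 33 members after 4 months (1 at an unadjusted p under 0.05; DESeq2 0) and for 0 of 33 after 6 months (3; DESeq2 0), where 0% and 0.0238% of all genes were higher.

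Genotype moved a few members under Estop. Averaged over schedules, zQ175 was higher than WT for 3 of 33 members and lower for 2 (edgeR; 24.1% of all genes higher, 22.5% lower), so the share of members called was below that of all genes. Cd4 had 55.2, 96.7 and 119 CPM in 37 WT libraries and 36.0, 61.4 and 78.0 CPM in 40 zQ175 libraries, and fell by 0.70 ± 0.06 (adjusted p = 1.9e-21). It fell in each schedule, by 0.61, 0.72, 0.59, 0.81 and 0.73 by age at injection and then at collection, and in 2M_6M and 6M_10M no zQ175 library reached the lowest WT library. Irf9, a DNA-binding factor of interferon signalling, had medians of 6.37 and 8.34 CPM and was higher by 0.34 ± 0.08 (adjusted p = 6.1e-05). Irf7 (0.30 ± 0.12, 0.025) and Ifit2 (0.13 ± 0.05, 0.027) were higher and Ighm (-0.27 ± 0.09, 0.0075) was lower. Igkc differed by -1.08 ± 0.48 (adjusted p = 0.053). In the same contrast, 9 of 10 medium spiny neuron markers (median -0.76), 10 of 12 microglial markers (-0.15) and 9 of 9 astrocyte markers (-0.24) were lower. The part of these cells in the Cd4 and Ighm differences was not tested.

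The largest movement of the members was between schedules. This comparison, of 6M_8M with the mean of the other 4 schedules, was chosen after the data were seen. In Estop libraries 31 of 33 members were higher in 6M_8M and 0 lower (edgeR; 26.9% of all genes higher, 24.3% lower), in DBD libraries 29 were higher (27.1%, and 25.7% lower) and in nZFP libraries 20 (25.9%, and 21.9% lower), with 0 members lower in both. Ciita, Cd3g and Cd8a passed the filter on low counts in fits of single schedules in 6M_8M alone, so their entry into the test depended on the schedule where they were high. Over the 30 members that passed it in every schedule, 28, 26 and 17 were higher and 0 lower under Estop, DBD and nZFP, a count added after the data were seen. The medians of the members were 0.84, 0.68 and 0.41, against 0.01, 0.02 and 0.02 over all genes. Because 6M_8M is the single schedule with 2 months of treatment and 1 cohort, time since injection, cohort and handling cannot be told apart.

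Among the 30 members that passed in every schedule, Cxcl10 and the class II genes Cd74, H2-Aa, H2-Ab1 and H2-Eb1 gave the largest differences under Estop. Cd74 had 1.54, 11.8 and 88.3 CPM (lowest, median, highest) in 16 Estop libraries of 6M_8M and 0.814, 1.93 and 7.35 CPM in 61 Estop libraries of the other schedules. It was higher by 3.18 ± 0.25 (adjusted p = 1.9e-23), and 9 of the 16 lay above every other Estop library. H2-Aa (3.18 ± 0.25), H2-Ab1 (2.88) and H2-Eb1 (2.89) were higher too. The 3 genes that 6M_8M brought into the test are given by their values only, with Ciita at a difference of 2.78 ± 0.33. Cd8a, the coreceptor of cytotoxic T cells, had 0, 0.148 and 0.961 CPM against 0, 0.0282 and 0.207 CPM (2.47 ± 0.34), and Cd3g differed by 3.17 ± 0.38. Both are near the detection limit outside 6M_8M. Cd4 did not pass (-0.09).

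Class I genes and effectors differed less. H2-D1 had 58.2, 108 and 272 CPM against 47.1, 68.9 and 108 CPM (0.82), and 14 of 16 libraries lay above the median of the others. B2m differed by 0.55, H2-K1 by 0.70, Tap1 by 0.94, Tap2 by 0.34, Tapbp by 0.25 and Nlrc5 by 2.02 ± 0.21. Oasl2 had 2.52, 5.67 and 34.3 CPM against 1.62, 2.79 and 5.92 CPM (1.47 ± 0.15), with 15 of 16 above the median of the others and 5 above the highest. Ifit1 (1.05 ± 0.16), Isg15 (0.92), Ifit3 (0.84), Usp18 (0.84), Oas1a (0.73), Bst2 (0.73), Rtp4 (0.61) and Ifit2 (0.39) were higher, and Ifi27 was not (0.12). Cxcl10 had 0.102, 1.00 and 4.42 CPM against 0, 0.103 and 1.05 CPM (3.27 ± 0.37, adjusted p = 1.0e-13). Of the signalling factors, Irf7 differed by 0.69, Irf9 by 0.60 and Stat2 by 0.48. With the long-gene index as a covariate Stat2 differed by 0.27 and was still called.

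**Figure D3:**
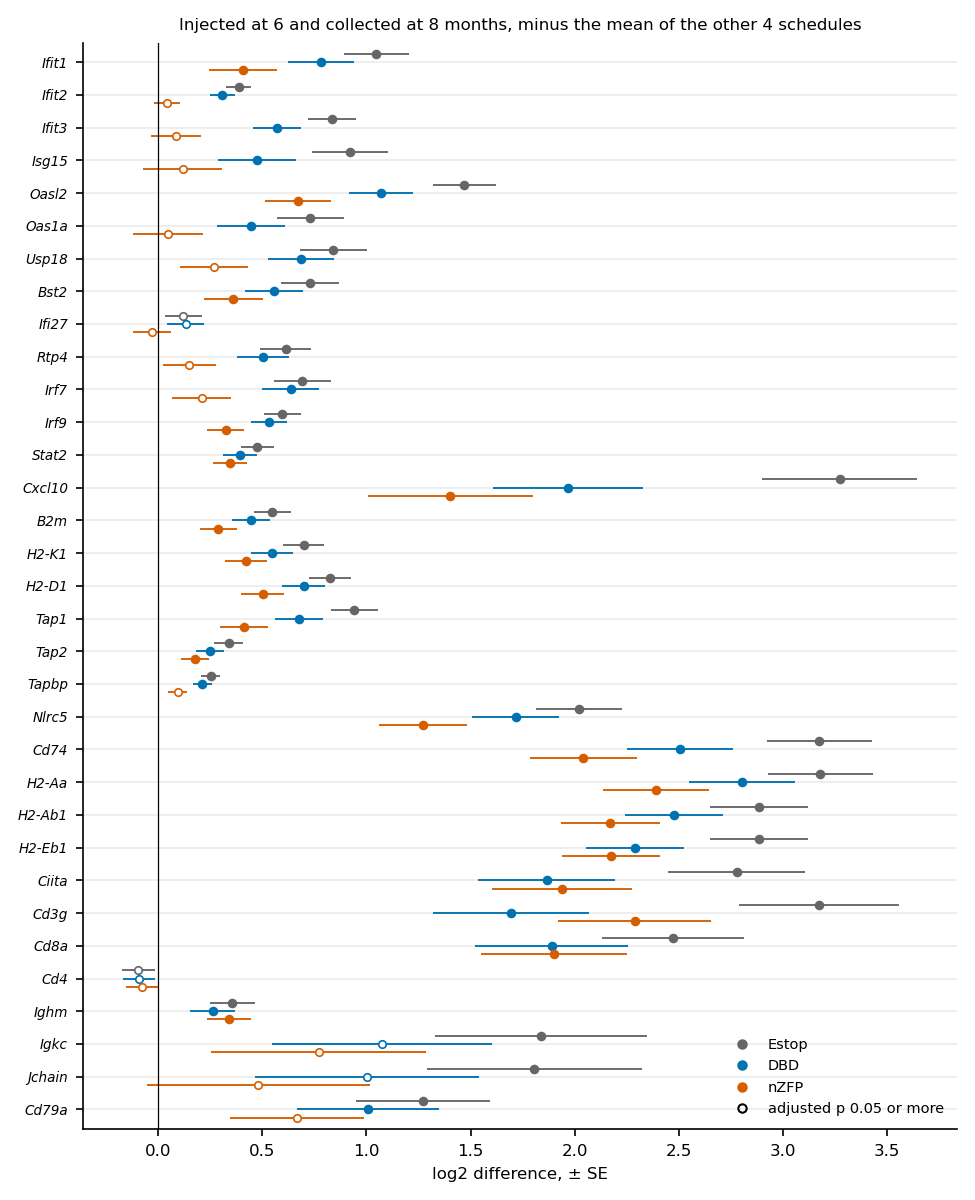
Log2 difference ± SE of 6M_8M from the mean of the other 4 schedules for each tested member under Estop, DBD and nZFP; open points have an edgeR adjusted p of 0.05 or more. Class II genes, Cxcl10, Cd3g and Cd8a lie farthest to the right under Estop, and most effectors under nZFP are open points near 0.

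The 6M_8M differences were also examined under the protein vectors. For DBD minus Estop, the median of the difference between these differences was -0.60 over 5 class II genes and -0.22 over 10 effectors, and for nZFP minus Estop -0.79 and -0.61. Cd74 differed by 2.51 under DBD and 2.04 under nZFP, where it had 1.23, 5.12 and 46.2 CPM against 0.903, 3.00 and 13.0 CPM. Interferon effectors were called for 9 of 10 under Estop and DBD but 3 of 10 under nZFP. Ifit1 differed by 0.41, Bst2 by 0.36 and Oasl2 by 0.67 there. The difference of these differences, nZFP minus Estop, passed for Ifit3 alone (-0.75 ± 0.17, adjusted p = 0.022, edgeR; 0.119% of all genes lower, 0.0119% higher), with 18 lower at an unadjusted p under 0.05. Ifit3 did not pass with limma-voom without a block (-0.68, adjusted p = 0.058) or without the 6M_8M libraries high in choroid plexus or cortical markers (-0.38, adjusted p = 0.94), and passed in the other 11 alternatives. For DBD minus Estop 0 passed (edgeR; 0.0357% of all genes higher; 2 lower at an unadjusted p under 0.05; DESeq2 0). Igkc and Jchain were higher under Estop (1.84 ± 0.51 and 1.81 ± 0.52) and did not pass under DBD (1.07 and 1.00).

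Other tissue markers moved with this schedule. Under Estop, 8 of 8 choroid plexus and ependymal markers (median 1.83) and 6 of 6 cortical neuron markers (1.74) were higher, and 8 of 10 medium spiny neuron markers were lower (-0.25). Summed choroid plexus and ependymal markers had 20.5, 33.4 and 737 CPM in 6M_8M and at most 55.7 CPM elsewhere, and summed cortical markers 3.69, 5.73 and 120 CPM and at most 7.13 CPM. These sums exceeded every library of the other schedules in 17 of 48 libraries of 6M_8M. Without those 17, 29 members were higher under Estop (19.7% of all genes), 26 under DBD (23.6%) and 21 under nZFP (15.1%). Homeostatic microglial markers moved little, with 1 of 12 higher and 1 lower, and 6 of 12 activated microglia markers were higher and 1 lower. Of reactive astrocyte markers 6 of 10 were higher and 1 lower, of border macrophage markers 1 of 7 was higher and 3 lower, and of endothelial markers 0 of 9 were higher and 4 lower. The part of these cells in the member differences was not tested. Of other interferon-stimulated genes 30 of 36 were higher (median 0.71), of other lymphocyte genes 19 of 23 (1.32), and of chemokines 5 of 8, with Cxcl9 at 5.17 ± 0.46 (adjusted p = 5.2e-20). Against single schedules (2M_6M, 2M_8M, 6M_10M, 6M_12M), 29, 29, 27 and 28 members were higher under Estop, where 8.22%, 33.5%, 10.1% and 25.8% of all genes were. Under DBD the counts were 25, 27, 22 and 23 (10.8%, 27.8%, 13.1% and 26.3%), and under nZFP 15, 17, 10 and 21 (8.52%, 35.5%, 7.40% and 20.5%). Under nZFP Cd4 was lower than in 2M_6M (-0.36, adjusted p = 0.0049; 4.5% of all genes lower) and Ifi27 lower than in 2M_8M (-0.36, 0.0027; 31.8%).

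Relation to vector transcripts was examined within groups, as the log2 slope of each member per doubling of the vector entry. In nZFP libraries, 19 of 31 tested members rose with the repressor entry and 0 fell (edgeR; 12.3% of all genes rose). The count depended on the libraries used, from 8 (24.1% of all genes) without the library of each group outlying in lymphocyte genes to 25 (9.63%) with the long-gene index as a covariate. It was 11 (22.3%) without the contradicting libraries, 10 (6.07%) without the libraries low in long genes and 10 (15.3%) without both. Vector entries were themselves lower in libraries low in long genes: in 6M_12M the repressor entry had 196, 233 and 349 CPM in 4 such nZFP libraries and 375, 664 and 920 CPM in the other 12.

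Stat2, H2-D1, Nlrc5 and Cd74 passed under each of the 10 alternatives. Their slopes were 0.16 ± 0.03 (adjusted p = 0.00033), 0.23 ± 0.05 (0.00053), 0.43 ± 0.10 (0.0012) and 0.60 ± 0.17 (0.0082). Without both kinds of doubtful library they were 0.24 (adjusted p = 4.2e-05), 0.27 (0.0082), 0.75 (0.00058) and 0.70 (0.033). H2-K1 (0.16 ± 0.05), B2m (0.15 ± 0.04), H2-Aa (0.50 ± 0.16), H2-Ab1 (0.49 ± 0.14), H2-Eb1 (0.49 ± 0.14), Ifit1 (0.25 ± 0.07) and Oasl2 (0.28 ± 0.08) passed with all libraries and in 6 to 8 of the 10. The 6M_8M libraries spanned the widest range of repressor. There, WT nZFP R4 and R3, with 102 and 140 CPM of repressor, had 1.38 and 2.13 CPM of Cd74, and the 3 libraries with over 40 CPM of Cd74 had 675, 730 and 876 CPM of repressor. WT nZFP R2, with 744 CPM of repressor, had 2.47 CPM of Cd74, so high vector did not always go with high Cd74.

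**Figure D4:**
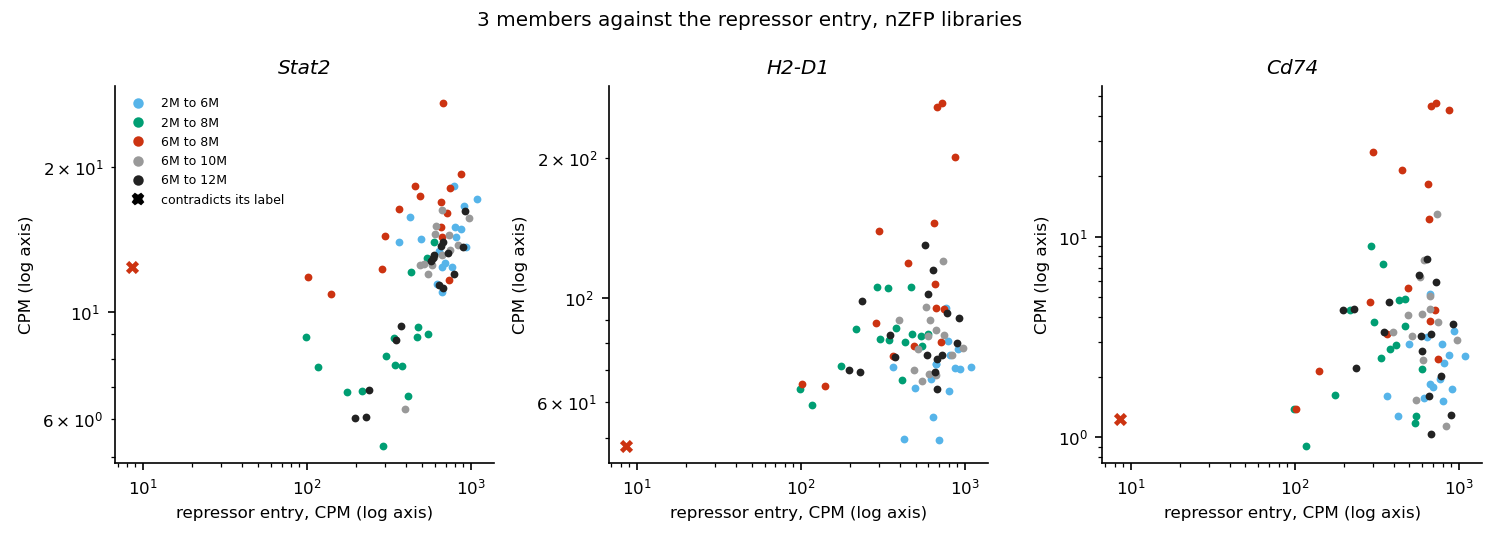
Level of Stat2, H2-D1 and Cd74 against the repressor entry in nZFP libraries (CPM, log axes), coloured by schedule; the cross is the library whose entries contradict its label. Libraries of 6M_8M (red) reach the highest levels of each, and those of 2M_8M and some of 6M_12M lie low for Stat2.

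Within single schedules fewer nZFP slopes passed, in fits of fewer libraries. The median member slope was 0.27 in 2M_6M, 0.15 in 2M_8M, 0.23 in both 6M_8M and 6M_10M and -0.07 in 6M_12M, against 0.18 over all schedules. In 6M_8M, 27 of 28 tested slopes lay above 0 and 18 had an unadjusted p under 0.05, but 0 passed after adjustment (edgeR; 0.244% of all genes rose), with Cd74 at 0.86 ± 0.26 (adjusted p = 0.14). In 2M_6M, 2M_8M and 6M_10M 0 passed (5, 3 and 3 at an unadjusted p under 0.05). Shares of all genes that passed in these fits are not given here. In 6M_12M, Stat2 (0.54) and Cd4 (0.44) rose and Ifi27 (-0.34), H2-K1 (-0.27) and H2-Ab1 (-0.60) fell, where 28.2% of all genes rose and 27.9% fell. In DBD libraries, 5 of 27 members rose with the WPRE entry in 2M_8M (25.3% of all genes rose, 26.3% fell) and 4 of 29 in 6M_12M (25.2% and 22.3%). Stat2 (0.20 and 0.30), Ifit1 (0.21 and 0.29) and Cd4 (0.13 and 0.17) rose in both, Oasl2 (0.21) and Cd74 (0.35) in 2M_8M and Tapbp (0.15) in 6M_12M, while Ifi27 fell in both (-0.12 and -0.21). The schedules 2M_6M, 6M_8M and 6M_10M gave 0 calls in DBD libraries. With the long-gene index as a covariate, no member was called within a schedule in nZFP or DBD libraries. Shares of all genes are not given for these fits, so the absence of calls need not be particular to the members.

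Over all schedules of DBD libraries, 1 of 30 members, Stat2 (0.12 ± 0.03), rose with the WPRE entry (edgeR; 19.6% of all genes rose). H2-D1 had a slope of -0.03 ± 0.03 and Cd74 of -0.02 ± 0.10. The count was 6 without contradicting libraries (24.1%) and 0 without libraries low in long genes (0.479%). With the long-gene index as a covariate it was 2, and 9 when contradicting libraries were also left out (shares of all genes not given). On the shared WPRE entry, the slopes of nZFP exceeded those of DBD for 3 members, the class I genes B2m (0.23), H2-K1 (0.24) and H2-D1 (0.29; 0.621% of all genes higher), with 19 higher at an unadjusted p under 0.05. Without the contradicting libraries H2-D1 (0.27; 0.344%) was left. In Estop libraries 0 of 31 members followed the Estop entry (edgeR; 6 higher at an unadjusted p under 0.05; 0% of all genes), whose highest level was 8.16 CPM.

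The virus in the other hemisphere was compared among libraries of 1 virus. By edgeR, 0 members differed in Estop libraries (nZFP minus DBD on the other side; 7 higher at an unadjusted p under 0.05; 0% of all genes), 0 in DBD libraries (nZFP minus Estop; 0; 0.0186% higher) and 0 in nZFP libraries (DBD minus Estop; 1 higher and 3 lower; 0.00622% higher). In nZFP libraries the 3 lower were Igkc (-1.11 ± 0.51), Jchain (-1.06 ± 0.52) and Cd79a (-0.85 ± 0.32), and the 1 higher was Ciita (0.65 ± 0.31). Injected side goes with the pair of viruses, so side and the other virus cannot be told apart.

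Levels of a member in the left and right hemisphere of a mouse were also compared. After group means were removed, Pearson's r (Spearman's rho) over 113 mice was 0.58 (0.56) for Igkc, 0.59 (0.57) for Jchain and 0.57 (0.55) for Cd74, as a description without a test. The median over members was 0.34 (0.27), against 0.29 (0.30) over all genes, and the effectors had 0.21 (0.19). In 24 mice of 6M_8M the members had a median of 0.42 and Igkc 0.75, and in the other 89 mice 0.18 and 0.52, where all genes had 0.23 and 0.32. Class II genes had a median of 0.67 in 6M_8M but 0.27 in the other schedules, below all genes, with Cd74 at 0.47, H2-Ab1 at 0.30, H2-Aa at 0.27, Ciita at 0.24 and H2-Eb1 at 0.15. The antibody genes Igkc and Jchain had 0.52 and 0.53 in the other schedules. Without the 2 mice farthest from the median, Igkc had 0.56 and Cd74 0.60. One WT mouse of 6M_8M had 47.4 CPM of Igkc in its Estop hemisphere and 119 CPM in its nZFP hemisphere. In another WT mouse Cd74 differed widely, with 3.26 CPM on the nZFP side and 48.3 CPM on the side labelled DBD, whose vector entries contradict that label. Stat2 had 0.57, and hemispheres also share handling and the long-gene index, so their part in the likeness was not tested.

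**Figure D5:**
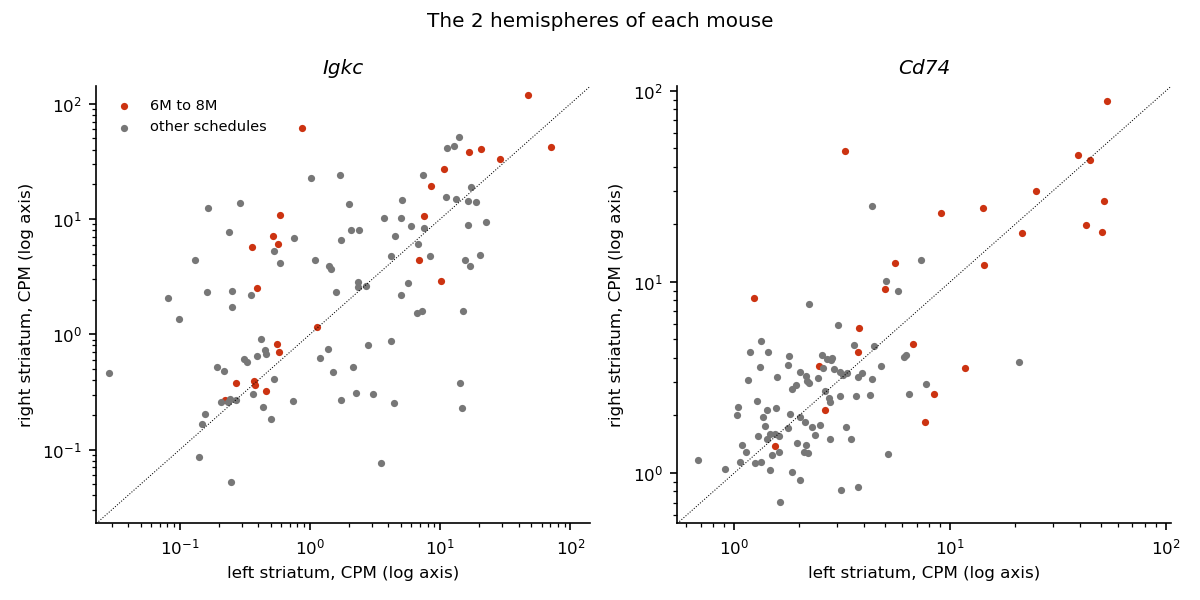
Igkc and Cd74 (CPM, log axes) in the left against the right hemisphere of the 113 mice with both libraries, by schedule. Mice high on one side tend to be high on the other, and the mice of 6M_8M hold the highest Cd74 levels.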

How the data were processed

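Expression of 41135 entries, 6 of them vector sequences, was deposited for 233 libraries as RSEM expected counts by the authors (90.4% of values whole within 1e-09) and as a deposited table that is named FPKM but has equal library sums, and was therefore taken to be TPM. RSEM and GRCm38 are named without versions in the submitters' processing notes; neither annotation release nor counting strand is given in the sources used here. Library totals were 27993227 to 61296096 counts (median 37385970). Vector entries, at most 0.669% of a library, stayed out of library sizes and tests. Symbols came from an annotation of GRCm38, matched by identifier (40254 entries). The members and lists were chosen with earlier results of these data known.

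Expected counts were rounded and tested by robust quasi-likelihood F-tests of edgeR 4.0.16 under R 4.3.3 (two-sided, Benjamini-Hochberg over all genes tested, threshold 0.05). Filtering used filterByExpr on groups, scaling used TMM, and sex was a term. The 6 groups of a schedule shared 1 fit. Averages over schedules, genotype, interactions and schedule differences came from 1 fit of all 30 groups (16792 genes). Slopes on log2 vector CPM (pseudocount 0.1) and the other hemisphere were fitted within 1 virus with group and sex as terms. SE is the absolute log2 difference over the root of F, intervals are 1.96 SE (95%), and levels are CPM. Hemispheres were compared on log2 CPM with a pseudocount of 0.1. Named members were up to 4 per role with the smallest p over the virus contrasts and any whose call differed between contrasts. Up to 4 genes were named of each of 15 lists (228 genes, 2 without an entry). The long-gene index of a library is the median centred log2 CPM of genes in the longest quartile minus that of the shortest, with relative lengths taken from the ratio of counts to TPM.

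Mice pair the hemispheres: the median correlation of their deviations over genes was 0.195 (80 of 113 pairs over 0.1). Replicate numbers matched in 59 of 113 mice, and same-numbered libraries of other mice had a median of 0.0444 over 167 pairs. Libraries of a group were distinct (792 pairs, smallest chi-square per degree of freedom 4.88, 0 identical). The labels give mouse identity, and each mouse gave at most 1 library to a group. The main fits held no term for the mouse, so both hemispheres of a mouse entered virus contrasts as separate libraries. With the mouse as a block, 13 of 16 member calls between viruses in single schedules were lost (edgeR). In the averaged fit, 5 of 11 were lost with this block (limma-voom). DESeq2 1.42.0, limma-voom (limma 3.58.1), RLE factors, filters, blocks, covariates and left-out libraries were alternatives. The fits were also run on simulated counts, and the outcome is not given here. The simulation held no pairing by mouse, no outlying libraries and no split in long genes.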

Additional observations from a re-analysis of the deposited data

Results flagged for a closer look

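Summed levels of each role were screened in each of the 30 groups for a highest or lowest library set apart from the rest by more than Dixon's 95% critical value. Of 210 sums 53 held such a library. That critical value gives about 1 in 20 by chance only for normally distributed sums, which summed CPM need not be. The sums of a group also share libraries, so 53 of 210 is not set against a chance rate. No explanation of these libraries was tested.

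For the 10 interferon effectors, high sums were 94.8 CPM in WT DBD 2M_8M R8, 84.6 CPM in WT DBD 6M_10M R2, 73.0 CPM in WT DBD 6M_12M R5 and 68.1 CPM in WT Estop 6M_10M R6. Further high sums of these genes were 108 CPM in WT nZFP 6M_8M R8, 78.4 CPM in zQ175 DBD 2M_6M R3, 66.6 CPM in zQ175 DBD 2M_8M R5 and 150 CPM in zQ175 nZFP 6M_8M R6. A low sum of them was 38.3 CPM in WT Estop 2M_6M R7.

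For the 3 signalling factors, high sums were 26.5 CPM in WT Estop 6M_10M R6 and 60.9 CPM in zQ175 nZFP 6M_8M R6. A low sum of them was 17.3 CPM in WT DBD 6M_10M R2.

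For Cxcl10, high sums were 1.5 CPM in WT DBD 2M_6M R8, 0.33 CPM in WT Estop 2M_8M R4, 0.712 CPM in WT nZFP 6M_12M R4 and 2.27 CPM in WT nZFP 6M_8M R8. Further high sums of these genes were 0.472 CPM in zQ175 DBD 2M_6M R1, 0.837 CPM in zQ175 DBD 2M_8M R6, 0.907 CPM in zQ175 DBD 6M_10M R2 and 1.01 CPM in zQ175 nZFP 6M_10M R3. The last high sum was 3.5 CPM in zQ175 nZFP 6M_8M R6.

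For MHC class I presentation, high sums were 347 CPM in WT nZFP 6M_10M R7, 588 CPM in zQ175 DBD 6M_12M R3, 310 CPM in zQ175 Estop 6M_12M R3 and 333 CPM in zQ175 nZFP 2M_8M R1. The last high sum was 683 CPM in zQ175 nZFP 6M_8M R6.

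For MHC class II presentation, high sums were 53.0 CPM in WT DBD 6M_10M R7, 13.3 CPM in WT Estop 6M_10M R7, 180 CPM in WT Estop 6M_8M R1 and 21.3 CPM in WT nZFP 6M_10M R7. Further high sums of these genes were 31.3 CPM in zQ175 DBD 6M_12M R3, 92.1 CPM in zQ175 DBD 6M_8M R8, 7.77 CPM in zQ175 Estop 2M_8M R6 and 8.3 CPM in zQ175 Estop 6M_10M R2. The last high sum was 10.2 CPM in zQ175 Estop 6M_12M R3.

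For the T cell genes, a sum made almost wholly of Cd4, 1 high sum was 103 CPM in WT nZFP 2M_8M R6. Low sums of them were 46.8 CPM in WT DBD 6M_10M R2, 19.8 CPM in zQ175 DBD 2M_6M R3, 41.5 CPM in zQ175 DBD 6M_8M R8, 56.8 CPM in zQ175 Estop 2M_6M R5 and 32.8 CPM in zQ175 nZFP 6M_10M R2.

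For the B and plasma cell genes, high sums were 73.7 CPM in WT DBD 2M_6M R6, 158 CPM in WT DBD 6M_10M R5, 46.4 CPM in WT Estop 6M_12M R1 and 47.3 CPM in WT nZFP 2M_6M R7. Further high sums of these genes were 132 CPM in WT nZFP 6M_10M R7, 284 CPM in WT nZFP 6M_8M R8, 42.8 CPM in zQ175 DBD 2M_8M R4 and 58.4 CPM in zQ175 DBD 6M_10M R7. The remaining high sums were 19.7 CPM in zQ175 Estop 2M_6M R7, 23.1 CPM in zQ175 Estop 6M_12M R7, 109 CPM in zQ175 Estop 6M_8M R6 and 48.4 CPM in zQ175 nZFP 6M_12M R7.

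The library zQ175 nZFP 6M_8M R6 stood out in 4 of the 7 roles, and WT nZFP 6M_8M R8, WT DBD 6M_10M R2 and WT nZFP 6M_10M R7 in 3 each. WT DBD 2M_6M R6, high in B and plasma cell genes, was a library whose vector entries contradicted its label, and zQ175 DBD 2M_6M R3, low in Cd4, had the lowest long-gene index of all libraries (-1.52). The next lowest indices belonged to zQ175 nZFP 6M_10M R2 (-1.41) and WT DBD 6M_10M R2 (-1.21), which were low in Cd4 too.

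Cd4 responded to nZFP against Estop by 0.29 more (log2) in zQ175 than in WT by the interaction term of edgeR (adjusted p = 0.031). It was 0.28 and did not pass with the mouse as a block (limma-voom, adjusted p = 0.071), nor did it pass without the library of each group outlying in interferon effectors (0.30, adjusted p = 0.060) or in lymphocyte genes (0.29, adjusted p = 0.091). Ifit3 differed between viruses in how far 6M_8M lay from the other schedules, with -0.75 for nZFP minus Estop (adjusted p = 0.022). It did not pass with limma-voom without a block (-0.68, adjusted p = 0.058) or without the 6M_8M libraries high in choroid plexus or cortical markers (-0.38, adjusted p = 0.94).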

How the results depend on the processing

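Counts of called members were recomputed with each choice changed in turn. Shares of all genes called in the same refits are not given beside these counts. A changed count therefore need not be particular to the members. No called value of a named member changed sign, and 268 of the recomputed counts stayed within 1.5 times their value in the report. For 6M_8M the counts under Estop (31) stayed between 28 and 33 and those under DBD (29) between 26 and 32. Cd4 (lower in zQ175 under Estop, and higher under nZFP in zQ175 against both controls) and Irf9 (higher in zQ175 under Estop) in fits averaged over schedules passed under every alternative run, 12 or 13 for each.

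With the mouse as a block, the calls summed over schedules went from 6 to 3 for nZFP minus Estop in zQ175 and from 1 to 0 for nZFP minus DBD in WT. In the averaged fit by limma-voom with this block, nZFP minus DBD in zQ175 went from 6 to 2, the interaction of nZFP with genotype from 1 to 0, and the difference of 6M_8M between nZFP and Estop from 1 to 3. With both genotypes together it gave 2 (from 4) for nZFP minus DBD and 2 (from 1) for DBD minus Estop. In single schedules of zQ175 it gave 1 (from 5) in 2M_6M and 2 (from 1) in 2M_8M for nZFP minus Estop, and 1 (from 7) and 4 (from 2) for nZFP minus DBD. The 2M_8M counts include members that were not called without the block. Libraries of different mice share only a replicate number: as a block, that number left every count it was run for within 1.5 times.

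DESeq2 gave 1 in place of 0 for DBD minus Estop in WT, 2 in place of 1 for nZFP minus DBD in WT summed over schedules, and 2 in place of 1 for the nZFP minus Estop difference of 6M_8M. Without the library of each group outlying in interferon effectors, the counts were 1 (from 0) for nZFP minus Estop in WT over schedules, 4 (from 9) for nZFP minus DBD in zQ175 over schedules, 9 (from 5) for genotype under Estop, 12 (from 20) for 6M_8M under nZFP, 8 (from 1) for its nZFP minus Estop difference, 0 (from 1) for the interaction and 11 (from 19) for the nZFP slope. Without those outlying in lymphocyte genes they were 0 (from 1) for nZFP minus DBD in WT over schedules, 2 (from 1) for the 6M_8M difference, 0 (from 1) for the interaction and 8 (from 19) for the nZFP slope. With the long-gene index as a covariate they were 2 and 1 (from 0) for DBD minus Estop in WT and zQ175, 5 (from 3) and 13 (from 6) for nZFP minus Estop in zQ175 averaged and over schedules, 1 (from 0) and 0 (from 1) for nZFP minus DBD in WT, 2 (from 1) for the 6M_8M difference and 2 (from 1) for the DBD slope. Without contradicting libraries they were 6 (from 1) for the DBD slope, 11 (from 19) for the nZFP slope and 1 (from 3) for the difference of WPRE slopes.

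The following alternatives were chosen after seeing the data. Limma-voom without a block gave 1 (from 3) for nZFP minus Estop in zQ175 and 0 (from 1) for the 6M_8M difference. Without the 6M_8M libraries high in choroid plexus or cortical markers, 12 (from 3) and 12 (from 6) were called in zQ175 for nZFP minus Estop and nZFP minus DBD, and 0 (from 1) for the 6M_8M difference. Without libraries low in long genes, the slopes gave 10 (nZFP) and 0 (DBD). Without these and the contradicting ones they gave 10 and 0, and with the index as covariate and without the contradicting libraries the DBD slope gave 9. Left out of the fit of all groups, libraries low in long genes would empty WT nZFP 2M_8M, so that fit was not run. The cause of these shifts was not tested, beyond the fewer libraries in the left-out fits. Depth limits Cd3e, Gzmb, Cd3g, Cd8a and Ciita, which had 0 counts in many libraries.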
